A study of Mus musculus with 18 samples.

Results

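The 10 genes described here belong to the BCL2 family: the antiapoptotic *Bcl2*, *Bcl2l1* (encoding BCL-XL), *Mcl1*, *Bcl2a1b* and *Bcl2a1d* (encoding A1), the effectors *Bax* and *Bak1*, and the BH3-only genes *Bcl2l11* (encoding BIM), *Bid* and *Pmaip1* (encoding NOXA). They were found by symbol, from the versioned Ensembl gene IDs, in a table of sorted liver lymphocytes and in a table of sorted metastasis-associated macrophages (MAMs). All 10 were present among the 54309 genes of the lymphocyte table and among the 13759 genes of the MAM table. All 10 also passed the filter on low counts, which kept 13594 genes of the lymphocytes and 13759 of the MAMs.

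Proteins of the BCL2 family control whether the outer mitochondrial membrane stays intact. Antiapoptotic members bind BAX, BAK and the BH3-only proteins, BH3-only proteins are induced or activated by stress or by loss of survival signals, and BAX and BAK that are no longer held form pores that release cytochrome c and start the caspase cascade. NK cells and innate lymphoid cells type 1 (ILC1) need IL-15, which is known to sustain MCL1 and BCL2 and to restrain BIM, whereas A1 is known as an NF-κB target of activated leukocytes, myeloid cells included.

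The cells came from female C57BL/6J mice, 8 to 10 weeks old, 20 days after MC38 cells, a mouse colon carcinoma line, had been injected into the spleen to seed the liver. NK cells (NKp46+ CD49a- CD49b+) and ILC1 (NKp46+ CD49a+ CD49b-) were sorted from metastasis-free liver (MFL), and CD49a- NK cells and CD49a+ NK cells (NKp46+ CD49a+ CD49b+) from liver metastases (LM), with 3 libraries per group, each from a pool of 6 to 8 tissue samples. F4/80hi and F4/80low MAMs (CD45+ CD11b+) were sorted from MC38 metastases, again with 3 libraries per group, and the number of animals behind each MAM library is not given in the sources used here. LM tissue was digested with an enzyme mix and MFL tissue was smashed without it, so the site and the way of dissociation cannot be told apart. In bulk RNA from sorted cells, fewer cells of a type and less RNA per cell cannot be told apart either. The study describes the lymphocyte pools as coming from 3 separate sorts, and for the MAMs the sources used here do not say whether libraries were separate sorts, so p-values for the MAMs measure the spread between these libraries, which may be technical.

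The 12 lymphocyte libraries held 8795721 to 14386834 estimated counts, with total RNA as input, and the 6 MAM libraries 21278959 to 32267015, with poly(A) selection. The spread between libraries of a group, as edgeR's common biological coefficient of variation, was 0.517 to 1.25 in the lymphocytes, highest in CD49a- LM NK cells, and 0.16 to 0.164 in the MAMs. The sorting markers *Itga1* and *Adgre1* followed the labels. *Itga1*, which encodes CD49a, averaged 134 counts-per-million (CPM) in CD49a+ LM NK cells and 663 in MFL ILC1. It averaged 11.4 CPM in CD49a- LM NK cells and 11.5 in MFL NK cells. *Adgre1*, which encodes F4/80, averaged 958 CPM in F4/80hi and 146 in F4/80low MAMs. *Itga2*, which encodes CD49b, followed the labels less cleanly. It averaged 36.96 CPM in MFL ILC1, sorted as CD49b-, against 292.8 in CD49a- LM and 346.5 in MFL NK cells. In CD49a+ LM NK cells, sorted as CD49b+, it lay between these levels, at 128.7 CPM (65.75 to 218.5). *Eomes*, which was not used for sorting, was low in MFL ILC1 (20.3 CPM, against 668 in MFL NK cells and 687 in CD49a+ LM NK cells). The 6 T cell markers summed to 247 to 681 CPM in MFL ILC1, against 4.98 to 14.7 in MFL NK cells and 5.18 to 35.7 in CD49a+ LM NK cells, where *Cd4* and *Cd8a* were at 0. Of the 5 tumor epithelium markers, 2 were detected in each lymphocyte group and *Krt19* was at 0 in all. The 5 markers summed to 59.3 to 95.2 CPM in MFL ILC1, 23.8 to 51.5 in CD49a+ LM NK cells and 0.295 to 2.53 in MFL NK cells. In MFL ILC1 *Cdh1* averaged 55.8 and *Epcam* 17.7 CPM, and in CD49a+ LM NK cells 28.1 and 5.3 CPM. *Krt18* was at 0 in both of these groups, as was *Krt8* in CD49a+ LM NK cells. The 5 classical monocyte markers were lower in MFL ILC1 (205 to 310 CPM) than in CD49a+ LM NK cells (815 to 1220) and MFL NK cells (1160 to 1430). The 6 hepatocyte markers summed to 16.2 to 101 CPM in MFL NK cells and 31 to 77.7 in MFL ILC1, and to 0 to 13.1 in both LM groups. The 8 stress genes of tissue dissociation (*Fos*, *Jun*, *Hspa1a* and others) summed to 4440 to 8180 CPM in CD49a- LM NK cells and 5020 to 6320 in CD49a+ LM NK cells, against 2920 to 3700 in MFL NK cells and 2840 to 4280 in MFL ILC1. Of the 8, 2 were called higher in each LM group than in MFL NK cells, *Hspa1a* and *Hspa1b*. *Hspa1a* averaged 695.5 CPM in CD49a- LM, 470 in CD49a+ LM and 46.6 in MFL NK cells. *Fos* averaged 508.5, 491 and 495 CPM in these groups. The part of these markers and stress genes in the differences between LM and MFL groups was not tested.

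Within the lymphocytes, the antiapoptotic genes *Mcl1* and *Bcl2* were among the most abundant members in every group, and 9 of the 10 genes gave no called difference in any comparison. The exception was *Pmaip1*, which had 9 to 21 counts per library in MFL ILC1 and was 4.65 higher on the log2 scale in CD49a+ LM NK cells. A gene was called at an adjusted p under 0.1, by the quasi-likelihood F test of edgeR, adjusted over all genes tested after Benjamini and Hochberg. Between CD49a+ and CD49a- LM NK cells, 0 of 10 members were called, beside 0.14% of all genes, and 0 had an unadjusted p under 0.05. Of CD49a+ LM NK cells against MFL NK cells the count was 0 of 10, beside 0.647% of all genes, with 1 member (*Bcl2*) under an unadjusted p of 0.05. For CD49a- LM NK cells against MFL NK cells it was 0 of 10, beside 0.0736% of all genes, with 2 members (*Bcl2l11* and *Bcl2a1b*) under an unadjusted p of 0.05. MFL ILC1 against MFL NK cells gave 0 of 10, beside 3.06% of all genes, with 2 members (*Bcl2* and *Pmaip1*) under that unadjusted p. Against MFL ILC1, CD49a+ LM NK cells had 1 of 10 members called (*Pmaip1*), beside 3.58% of all genes. By DESeq2's Wald test the counts in these comparisons were 0, 0, 1, 2 and 1, beside 543, 365, 161, 667 and 1010 of the 13594 genes. By limma-voom with quality weights they were 0, 1, 1, 4 and 1, beside 0, 307, 104, 2645 and 935 genes. Comparisons with MFL NK cells use the same 3 libraries, as do those with MFL ILC1.

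**Figure D1:**
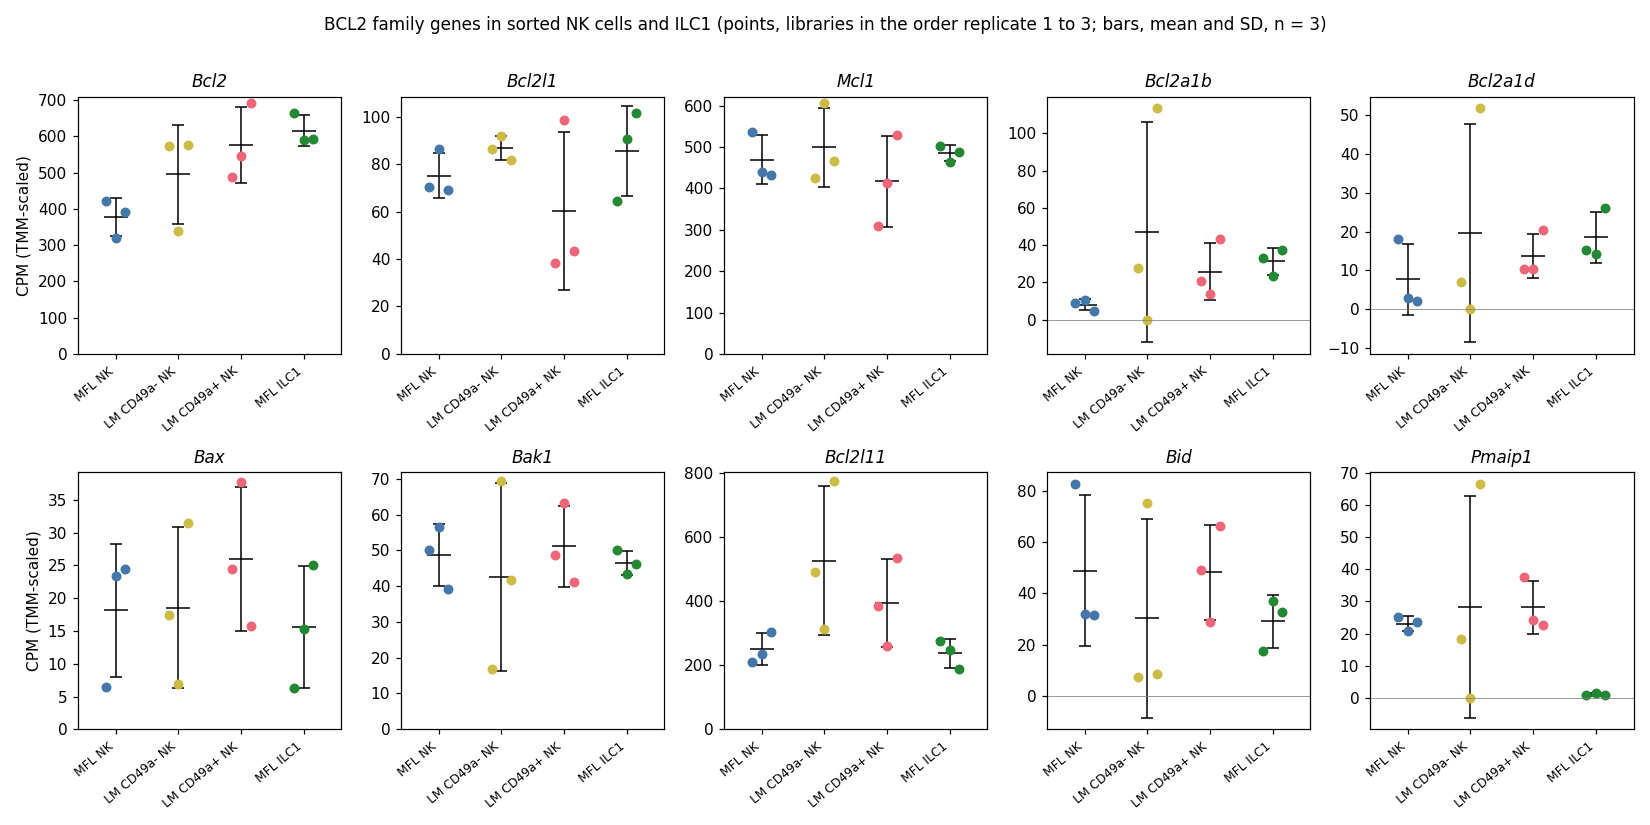
Level of each BCL2 family gene in the 12 lymphocyte libraries, in CPM after TMM scaling (y axis, linear and set for each gene) by group (x axis); points are libraries and bars are mean ± SD (n = 3). Pmaip1 lies at 0.853 to 1.54 CPM in MFL ILC1 and at 20.7 to 25.1 CPM in MFL NK cells, and the 3 libraries of CD49a- LM NK cells spread from 0 to 66.6 CPM for it.

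*Bcl2*, the founding antiapoptotic gene of the family, lies on chromosome 1 of GRCm39 (GENCODE vM39) at 106465908-106642060 on the minus strand. It measured 420.3, 319 and 392 CPM in the 3 libraries of MFL NK cells. In MFL ILC1 it measured 664, 589 and 593 CPM, and in CD49a+ LM NK cells 488, 546 and 691 CPM. CD49a- LM NK cells had 573, 338 and 575 CPM. All libraries of MFL ILC1 and of CD49a+ LM NK cells thus lay above all of MFL NK cells, while CD49a- LM NK cells overlapped with them. The log2 difference from MFL NK cells was 0.71 (SE 0.24, 95% interval 0.21 to 1.20, edgeR adjusted p = 0.192) in MFL ILC1. It was 0.61 (SE 0.24, 95% interval 0.11 to 1.11, edgeR adjusted p = 0.42) in CD49a+ LM NK cells. Neither passed the threshold after adjustment over all genes, and an exact permutation test of 3 libraries against 3 cannot go below 0.1. Between CD49a+ LM NK cells and MFL ILC1, *Bcl2* differed by -0.10 (95% interval -0.59 to 0.40). The call for MFL ILC1 against MFL NK cells depended on the setting: it passed by DESeq2 (adjusted p = 0.0587), by limma-voom (1.22e-05), with those 2 groups alone in the edgeR fit (0.0238) and without CD49a- LM NK replicate 2. That of CD49a+ LM NK cells against MFL NK cells passed by limma-voom (0.69, adjusted p = 0.063).

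*Mcl1*, whose short-lived product is bound by BIM and NOXA, lies on chromosome 3 at 95566026-95570487 (plus strand). It varied little among the groups, with 537, 439 and 431 CPM in MFL NK cells and 502, 464 and 487 CPM in MFL ILC1. CD49a- LM NK cells had 425, 607 and 466 CPM, and CD49a+ LM NK cells 309.7, 413 and 529.7 CPM. The groups overlapped in each comparison, and the log2 differences ran from -0.26 (CD49a+ LM against CD49a- LM NK cells, 95% interval -0.74 to 0.22) to 0.09 (CD49a- LM NK cells against MFL NK cells, 95% interval -0.39 to 0.57). The 95% intervals of all 5 pairwise differences lay between -0.74 and 0.57. In each comparison, differences of *Mcl1* within its interval stay compatible with these data.

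*Bcl2l1*, encoding BCL-XL (chromosome 2, 152622582-152673655, minus strand), was 5.82% to 22.2% variable (SD over mean) within 3 of the groups and 55.5% in CD49a+ LM NK cells. Its levels were 70.4, 86.3 and 68.9 CPM in MFL NK cells, 86.4, 91.8 and 81.8 in CD49a- LM NK cells, and 64.5, 90.6 and 102 in MFL ILC1. In CD49a+ LM NK cells it measured 38.4, 98.8 and 43.5 CPM, so that 2 libraries lay under all others of the table and 1 lay near the top. Its log2 difference between CD49a+ and CD49a- LM NK cells was -0.52 (SE 0.35, 95% interval -1.25 to 0.21).

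*Bcl2a1b* and *Bcl2a1d* are copies of 1 gene that lie together with *Bcl2a1a* on chromosome 9 of GRCm39, at 89081262-89089889 on the plus strand, 88605338-88613967 on the minus strand and 88838953-88844472 on the plus strand. The coding sequences of their canonical transcripts are each 516 bases long. *Bcl2a1b* and *Bcl2a1d* share 510 of these bases (98.8%), *Bcl2a1b* and *Bcl2a1a* 505 (97.9%) and *Bcl2a1d* and *Bcl2a1a* 509 (98.6%). Counted from 1 at the start codon and with *Bcl2a1b* as reference, *Bcl2a1d* differs by G4T, T48C, A94C, G312A, C381G and T490A. These sequences are shown because they set how well reads can be given to 1 copy. Both stretches that hold the 12 differing positions of the 3 copies are printed 5′ to 3′, with these positions in capitals.

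Coding bases 1 to 100 lie in exon 1, at chr9:89081413-89081512 for *Bcl2a1b*, chr9:88613673-88613772 (minus strand) for *Bcl2a1d* and chr9:88839104-88839203 for *Bcl2a1a*, and hold 7 of the 12 positions.
Bcl2a1b: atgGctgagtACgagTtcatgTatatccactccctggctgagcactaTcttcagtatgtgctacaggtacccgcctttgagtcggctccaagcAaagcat
Bcl2a1d: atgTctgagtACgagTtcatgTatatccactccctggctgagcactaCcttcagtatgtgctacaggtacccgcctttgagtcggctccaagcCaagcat
Bcl2a1a: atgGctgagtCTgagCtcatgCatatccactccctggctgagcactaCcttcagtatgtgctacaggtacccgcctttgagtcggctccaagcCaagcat

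Coding bases 301 to 500 run from exon 1 into exon 2, across an intron, within chr9:89081713-89089714 for *Bcl2a1b*, chr9:88605506-88613472 (minus strand) for *Bcl2a1d* and chr9:88839404-88844304 for *Bcl2a1a*, and hold the other 5 positions.
Bcl2a1b: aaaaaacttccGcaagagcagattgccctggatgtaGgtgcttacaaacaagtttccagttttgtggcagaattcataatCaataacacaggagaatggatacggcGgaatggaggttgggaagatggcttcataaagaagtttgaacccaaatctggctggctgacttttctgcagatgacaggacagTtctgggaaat
Bcl2a1d: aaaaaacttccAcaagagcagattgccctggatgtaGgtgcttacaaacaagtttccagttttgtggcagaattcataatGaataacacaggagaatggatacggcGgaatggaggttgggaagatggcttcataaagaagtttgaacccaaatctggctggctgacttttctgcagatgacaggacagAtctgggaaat
Bcl2a1a: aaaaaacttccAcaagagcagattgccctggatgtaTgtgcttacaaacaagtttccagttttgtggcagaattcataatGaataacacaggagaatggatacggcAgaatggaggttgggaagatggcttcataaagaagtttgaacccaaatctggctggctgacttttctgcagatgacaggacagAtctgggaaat

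The index that was used to count the lymphocyte reads works with words of 31 bases. Of the 796 different words in the canonical *Bcl2a1b* transcript, 222 (27.9%) occur in neither of the other copies, and of the 833 of *Bcl2a1d* only 91 (10.9%). The split of reads between the copies is therefore an estimate, and the level of each copy is uncertain. *Bcl2a1a* was listed at 0 to 9 counts in each lymphocyte library.

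In MFL NK cells, *Bcl2a1b* measured 9.07, 10.3 and 4.77 CPM and *Bcl2a1d* 18.2, 2.80 and 2.06 CPM. MFL ILC1 had 32.9, 23.4 and 37.3 CPM of *Bcl2a1b*, all above MFL NK cells, and 15.2, 14.3 and 26.2 CPM of *Bcl2a1d*. CD49a+ LM NK cells had 20.7, 13.5 and 43.1 CPM of *Bcl2a1b*, again all above MFL NK cells, and 10.5, 10.4 and 20.3 CPM of *Bcl2a1d*. CD49a- LM NK cells ranged from none to the highest values of the table: replicate 2 had 0 counts of both copies, which allows up to 0.332 CPM (3 counts, counting error only), while replicate 1 had 27.5 and 7.02 CPM and replicate 3 had 113 and 51.8 CPM. No difference of either copy was called in the fit of all 12 libraries: for *Bcl2a1b* against MFL NK cells it was 2.55 (SE 1.16, edgeR adjusted p = 0.74) in CD49a- LM NK cells, 1.95 (SE 1.14, adjusted p = 0.875) in MFL ILC1 and 1.68 (SE 1.13, adjusted p = 0.787) in CD49a+ LM NK cells. With the copies summed, which removes the question of how reads were split, the differences were 2.06, 1.64 and 1.30 on the log2 scale, and none was called. Calls appeared under other settings. For MFL ILC1 against MFL NK cells, limma-voom called *Bcl2a1b* (1.80, adjusted p = 0.0365) and *Bcl2a1d* (2.63, adjusted p = 0.00604), and edgeR with those 2 groups alone called *Bcl2a1b* (1.94, adjusted p = 0.0181). For CD49a- LM NK cells against MFL NK cells, *Bcl2a1b* was called without the filter on low counts (2.56, adjusted p = 0.043). Without CD49a- LM NK replicate 2, *Bcl2a1b* was called for CD49a- LM against MFL NK cells, together with *Bcl2l11* and *Bid*, whereas the full set of libraries gave 0 calls.

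**Figure D2:**
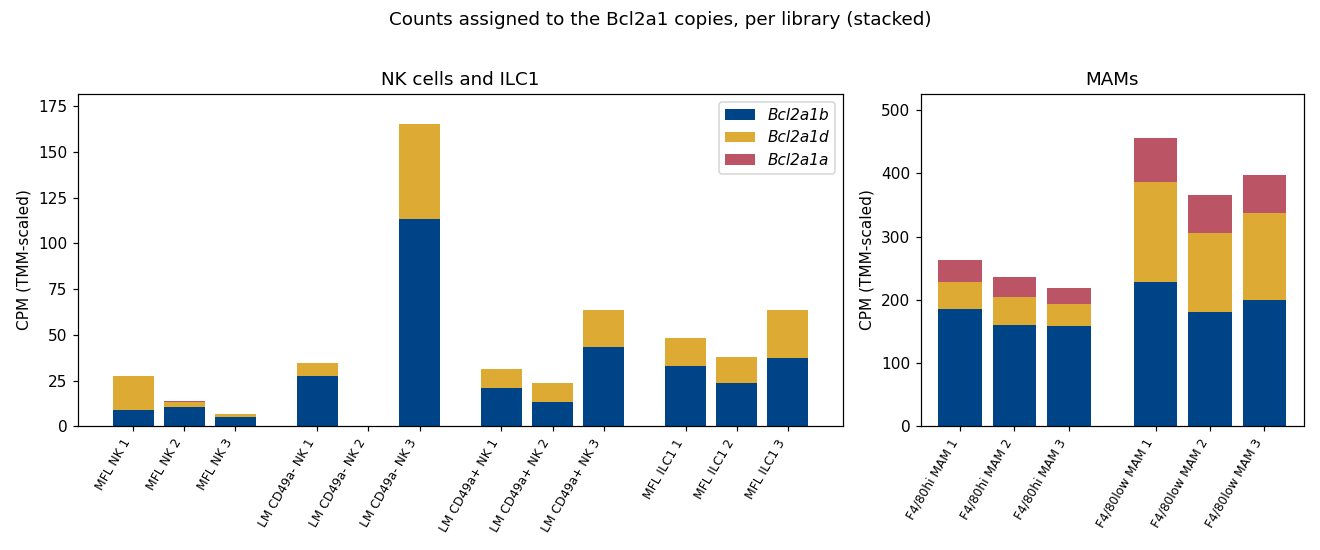
Counts given to Bcl2a1b, Bcl2a1d and Bcl2a1a in each library, stacked, in CPM after TMM scaling (y axis, from 0) for the lymphocytes (left) and the MAMs (right), whose tables were scaled separately. CD49a- LM NK replicate 2 is at 0, and Bcl2a1d takes 34.2% to 35% of the Bcl2a1 counts in F4/80low MAMs against 15.9% to 18.9% in F4/80hi MAMs.

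The effectors *Bax* (chromosome 7, 45111015-45116325, minus strand) and *Bak1* (chromosome 17, 27238784-27247983, minus strand), whose products permeabilize the mitochondrial membrane, showed no called difference. *Bak1* measured 50.1, 56.6 and 39.3 CPM in MFL NK cells, 50.0, 43.4 and 46.2 in MFL ILC1, and 48.7, 63.3 and 41.3 in CD49a+ LM NK cells. In CD49a- LM NK cells it ranged from 16.8 to 69.2 CPM. *Bax* was lower and more scattered, at 6.45, 23.4 and 24.5 CPM in MFL NK cells, 6.37, 15.3 and 25.0 in MFL ILC1, 17.4, 6.87 and 31.4 in CD49a- LM NK cells and 24.4, 37.7 and 15.8 in CD49a+ LM NK cells. All groups overlapped for both genes. The 95% intervals of the differences of *Bax* reached at least 1.40 on the log2 scale in both directions in 2 of the 5 comparisons (MFL ILC1 and CD49a- LM NK cells against MFL NK cells), so changes of *Bax* of that size stay compatible with these data there.

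Among the BH3-only genes, *Bcl2l11* (chromosome 2, 127967958-128004476, plus strand) was the most abundant. Its product BIM binds all antiapoptotic members and is known to accumulate when cytokine signals fade. MFL NK cells had 209, 234 and 305 CPM and MFL ILC1 275, 248 and 187 CPM. In CD49a- LM NK cells it measured 491, 314.5 and 774 CPM, all above MFL NK cells, and in CD49a+ LM NK cells 386, 260.1 and 535 CPM, which overlapped with them. The log2 difference from MFL NK cells was 1.08 in CD49a- LM NK cells (SE 0.32, 95% interval 0.41 to 1.75, edgeR adjusted p = 0.486) and 0.66 in CD49a+ LM NK cells (SE 0.31, 95% interval 0.00 to 1.32, adjusted p = 0.513). Against MFL ILC1, CD49a+ LM NK cells differed by 0.73 (SE 0.31, adjusted p = 0.298), and MFL ILC1 and MFL NK cells by -0.07 (95% interval -0.73 to 0.59). The difference of CD49a- LM NK cells was called by DESeq2 (adjusted p = 0.0695), by limma-voom (0.0494), without the filter on low counts (0.00555) and without CD49a- LM NK replicate 2. It moved with the site, and so with *Hspa1a*, *Hspa1b* and the sum of the stress genes of tissue dissociation given above. Their part in it was not tested.

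*Bid*, whose product links death receptors to the mitochondria (chromosome 6, 120862525-120894171, minus strand), had 1 library far from the other 2 in MFL NK cells and in CD49a- LM NK cells. It measured 82.8, 32.1 and 31.5 CPM in MFL NK cells and 7.47, 75.1 and 8.43 CPM in CD49a- LM NK cells. MFL ILC1 had 17.5, 37.2 and 32.9 CPM and CD49a+ LM NK cells 49.2, 29.0 and 66.3 CPM. The groups overlapped, with log2 differences from -0.74 (MFL ILC1 against MFL NK cells) to 0.72 (CD49a+ LM NK cells against MFL ILC1), each with an SE of 0.72.

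*Pmaip1* encodes NOXA, a p53-inducible BH3-only protein that binds MCL1 and A1. MFL NK cells had 25.1, 20.7 and 23.6 CPM and CD49a+ LM NK cells 37.7, 24.3 and 22.7 CPM. MFL ILC1 held only 0.934, 1.54 and 0.853 CPM, from 11, 21 and 9 counts, so that each library of MFL ILC1 lay under each of both other groups. CD49a- LM NK cells had 18.4, 0 and 66.6 CPM, where the 0 allows up to 0.332 CPM. CD49a+ LM NK cells exceeded MFL ILC1 by 4.65 on the log2 scale, a 25.2-fold difference (SE 1.30, 95% interval 1.91 to 7.40, edgeR adjusted p = 0.0771). MFL ILC1 differed from MFL NK cells by -4.37 (SE 1.28, 95% interval -7.07 to -1.66, edgeR adjusted p = 0.106), which did not pass. Both comparisons share the MFL ILC1 libraries, and the sums of T cell (mostly *Cd3g*), tumor epithelium (mostly *Cdh1*) and classical monocyte markers given above moved with *Pmaip1*. Their part in the difference was not tested. The call between CD49a+ LM NK cells and MFL ILC1 was lost when any 1 of 7 libraries was left out (MFL NK replicates 1 and 3, MFL ILC1 replicates 1 to 3 or CD49a+ LM NK replicates 1 and 3), with adjusted p from 0.102 to 0.287 and a log2 difference from 4.40 to 4.96. It was kept by DESeq2 and by limma-voom. The difference between MFL ILC1 and MFL NK cells was called by DESeq2 (0.00284), by limma-voom (0.00224), without the filter on low counts (0.000176), with those 2 groups alone in the fit (0.00066) and without CD49a- LM NK replicate 1 or 2.

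**Figure D3:**
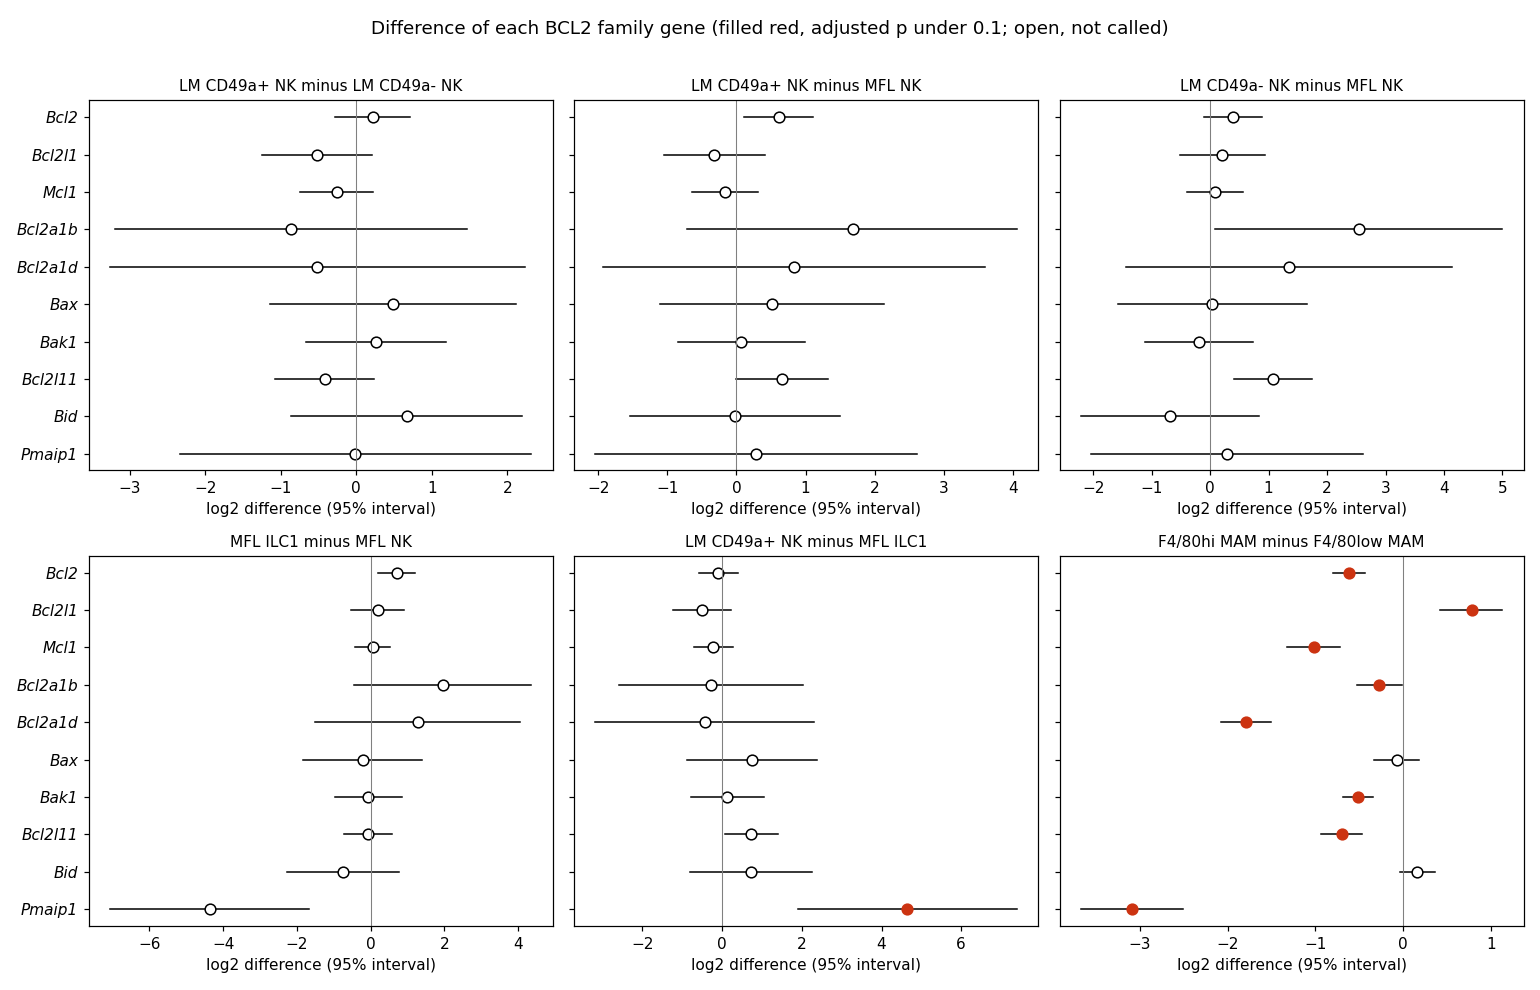
Log2 difference of each gene with its 95% interval (x axis, scaled for each panel) in 5 comparisons of the lymphocytes and 1 of the MAMs; filled points were called at an adjusted p under 0.1. Among the lymphocytes the filled point is Pmaip1 in CD49a+ LM NK cells against MFL ILC1 (4.65), while in the MAMs 8 of 10 genes are filled, from Pmaip1 at -3.09 to Bcl2l1 at 0.78.

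An interaction was tested as well, which compares CD49a+ LM minus CD49a- LM NK cells with MFL ILC1 minus MFL NK cells. It asks whether the difference of a member between CD49a+ and CD49a- cells was the same in both pairs of groups. The CD49a+ cells were CD49b+ NK cells in LM and CD49b- ILC1 in MFL, so site and cell type cannot be told apart in it. Of the 10 members 0 were called by edgeR, beside 1.03% of all genes. DESeq2 and limma-voom called 0 as well, beside 349 and 180 genes. By edgeR, 1 member (*Pmaip1*) had an unadjusted p under 0.05. Its interaction was 4.36 (SE 1.65, 95% interval 0.89 to 7.83, edgeR adjusted p = 0.443). That of *Bcl2* was -0.49 (95% interval -1.19 to 0.21) and that of *Bcl2l11* -0.35 (95% interval -1.28 to 0.59). Without CD49a- LM NK replicate 2, 3 members passed (*Bcl2a1b*, *Bid* and *Pmaip1*), so the count depends on that library.

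Levels of different members were compared per kilobase of their canonical transcript. *Mcl1* ranked first in every lymphocyte group, with means of 134 ± 16.9, 143 ± 27.3, 120 ± 31.5 and 139 ± 5.47 CPM per kb (SD, n = 3) in MFL NK cells, CD49a- LM NK cells, CD49a+ LM NK cells and MFL ILC1. It did not overlap with the next gene in MFL NK cells and MFL ILC1, but did in both LM groups. *Bcl2* and *Bcl2l11* came next in every group: in MFL NK cells they measured 52.1 ± 7.19 and 49.4 ± 9.85 CPM per kb and overlapped, in MFL ILC1 they measured 85.0 ± 5.83 and 47.0 ± 8.93 and did not. CD49a- LM NK cells had the reverse order, with 104 ± 45.9 CPM per kb of *Bcl2l11* and 68.3 ± 18.8 of *Bcl2*, which overlapped. *Pmaip1* was last in all 4 groups, from 0.406 ± 0.137 CPM per kb in MFL ILC1 to 10.4 ± 12.6 in CD49a- LM NK cells, and in MFL ILC1 it did not overlap with the gene above it, *Bid*. The genes between these ranks overlapped with their neighbours, except that *Bcl2l11* did not overlap with *Bcl2l1* in MFL NK cells.

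The ratio of *Bcl2* to *Bcl2l11*, from counts per kb in the same library, was 1.68, 1.65 and 2.21 in MFL ILC1. It was 1.40, 0.95 and 0.897 in MFL NK cells, 0.88, 1.46 and 0.899 in CD49a+ LM NK cells and 0.812, 0.749 and 0.517 in CD49a- LM NK cells. Every library of MFL ILC1 thus held more *Bcl2* than *Bcl2l11* and had a higher ratio than any NK cell library, and every library of CD49a- LM NK cells held less. For *Mcl1* to *Bcl2l11* the ratios were 3.72, 2.71 and 2.05 in MFL NK cells, 2.64, 2.70 and 3.76 in MFL ILC1, 1.25, 2.79 and 0.87 in CD49a- LM NK cells and 1.16, 2.29 and 1.43 in CD49a+ LM NK cells, where the groups overlapped. *Bcl2* to *Bcl2l1* ran from 1.66 to 7.15 in the NK cell libraries and from 2.63 to 4.64 in MFL ILC1. These ratios are a description and were not tested.

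**Figure D4:**
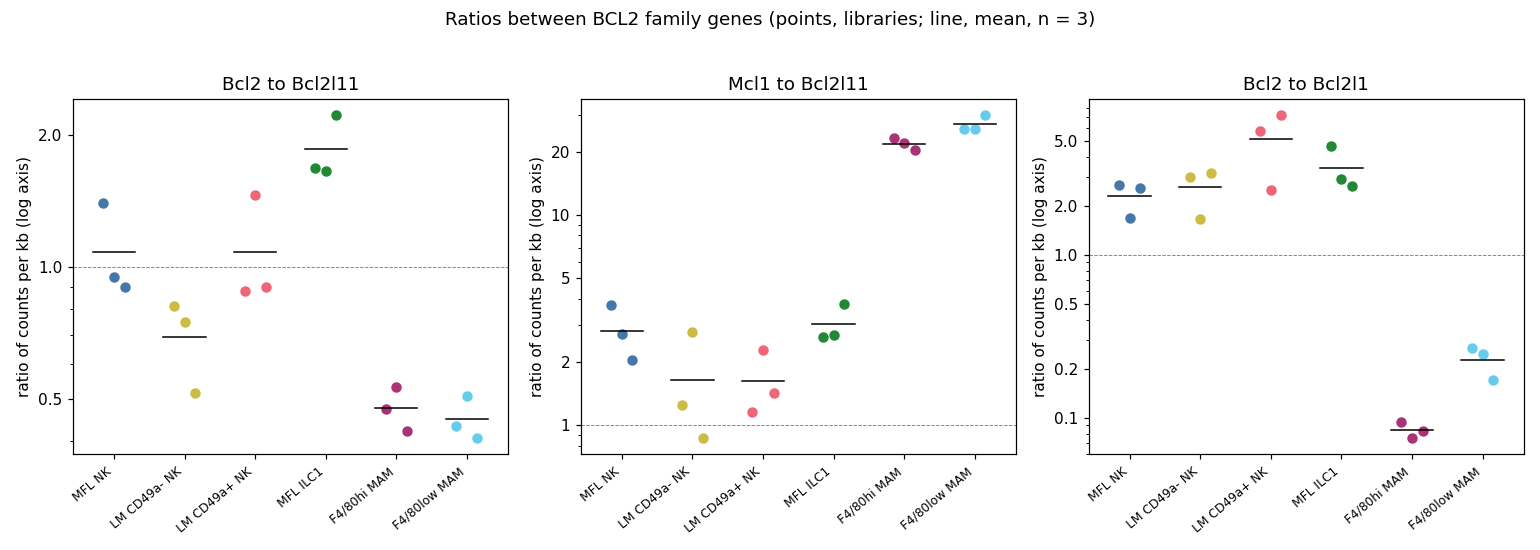
Ratio of counts per kb of Bcl2 to Bcl2l11, Mcl1 to Bcl2l11 and Bcl2 to Bcl2l1 in each library (y axis, log scale) by group (x axis); lines are means of 3 libraries. Among the lymphocytes, MFL ILC1 lie highest for Bcl2 to Bcl2l11 (1.65 to 2.21), and among the MAMs, F4/80hi lie lower for Bcl2 to Bcl2l1 (0.0751 to 0.095) than F4/80low (0.17 to 0.267); the tables were made with different kits and were not compared.

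The wider apoptosis genes were read from 5 lists: further BCL2 family genes, the mitochondrial apoptosis machinery, inhibitors of apoptosis, the death receptor branch and regulators of the family. Of their 49 tested genes, 0 were called between CD49a+ and CD49a- LM NK cells, 0 between CD49a+ LM and MFL NK cells and 0 between CD49a- LM and MFL NK cells, with 6, 5 and 6 under an unadjusted p of 0.05. DESeq2 called 2, 2 and 1 and limma-voom 0, 1 and 2 in these comparisons, beside their counts over all genes given above. Between MFL ILC1 and MFL NK cells 1 was called, and between CD49a+ LM NK cells and MFL ILC1 4 were, all of them among the 11 regulators. Of all genes, 3.06% and 3.58% were called there. DESeq2 called 2 and 7 and limma-voom 9 and 7, again beside their counts over all genes given above. The median log2 difference of the 10 members was -0.13, 0.40, 0.25, -0.01 and 0.02 in these 5 comparisons, and that of all genes 0.01, -0.04, -0.09, 0.01 and -0.07.

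The regulators that were called were *Foxo3*, *Nfkb1*, *Foxo1* and *Myc*. *Foxo3*, a transcription factor known to induce *Bcl2l11*, averaged 385 ± 68.9 CPM in MFL ILC1, 161 ± 32.5 in MFL NK cells, 196 ± 42.2 in CD49a- LM NK cells and 144 ± 57.1 in CD49a+ LM NK cells (SD, n = 3). It rose in MFL ILC1 against MFL NK cells by 1.26 on the log2 scale (SE 0.28, edgeR adjusted p = 0.0195) and was lower in CD49a+ LM NK cells than in MFL ILC1 by -1.42 (SE 0.28, adjusted p = 0.0101). The first of these calls was lost without MFL NK replicate 1 (adjusted p = 0.146) or MFL ILC1 replicate 2 (0.104). CD49a+ LM NK cells had more *Nfkb1*, a subunit of NF-κB, than MFL ILC1 (log2 difference 1.05, SE 0.28, adjusted p = 0.06), with 439 to 761 against 225 to 293 CPM. *Foxo1* (0.97, SE 0.26, adjusted p = 0.0698) and *Myc* (1.51, SE 0.45, adjusted p = 0.0973) were higher there as well. Of the 12 fits that leave out 1 library, 8 kept the call of *Nfkb1*, 4 that of *Foxo1* and 4 that of *Myc*; *Nfkb1* lost it without any 1 of MFL ILC1 replicates 1 to 3 or CD49a+ LM NK replicate 3, and *Foxo1* and *Myc* without any 1 MFL NK or MFL ILC1 library or CD49a+ LM NK replicate 1 or 3. *Foxo1* also lost it with those 2 groups alone in the fit (adjusted p = 0.118).

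The pattern of *Pmaip1* over the 12 libraries was most like those of *Muc4* (Pearson r = 0.94), *5830432E09Rik* (0.925) and *Plscr4* (0.925), of all genes with a mean of at least 5 CPM. *Muc4* averaged 0.2 CPM in MFL ILC1, 7.34 in MFL NK cells, 12.6 in CD49a- LM NK cells and 11.9 in CD49a+ LM NK cells. These points share libraries and depth, and the values are a description.

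In the MAMs, most members differed between the subsets, and most were lower in F4/80hi cells. Of 10 members 8 were called, beside 54.9% of all genes. Of these, 7 were lower in F4/80hi MAMs (beside 27.1% of all genes) and 1, *Bcl2l1*, was higher (beside 27.8%). The median log2 difference of the 10 members was -0.57, and that of all genes 0.01. The largest falls among the 10 were those of *Pmaip1*, *Bcl2a1d* and *Mcl1*. Since most genes of the table differed between the subsets, a called member is no exception in this comparison.

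**Figure D5:**
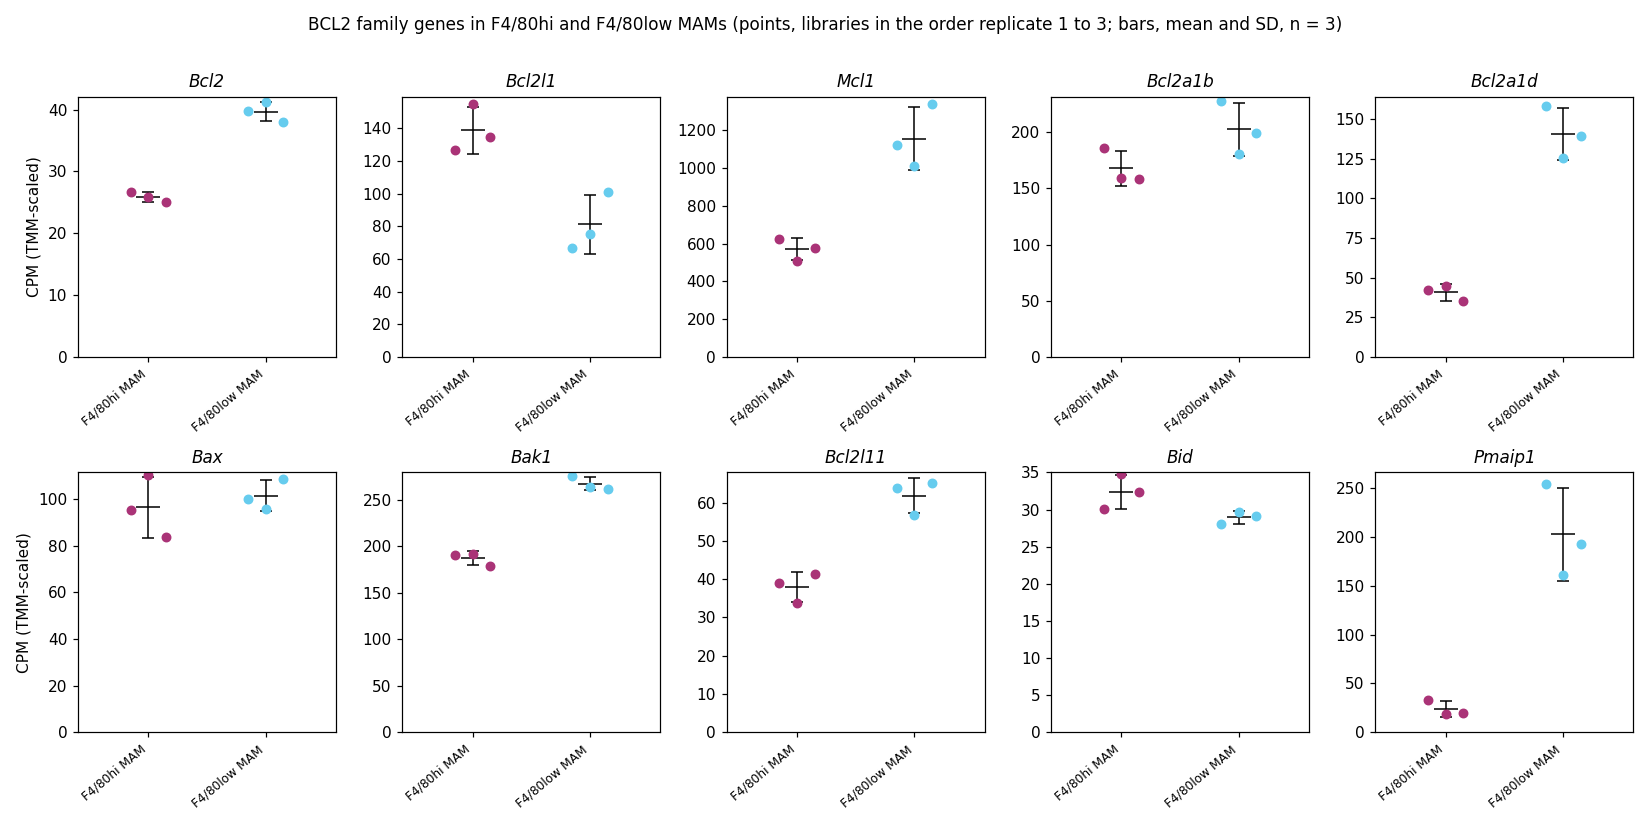
Level of each BCL2 family gene in the 6 MAM libraries, in CPM after TMM scaling (y axis, linear and set for each gene) by subset (x axis); points are libraries and bars are mean ± SD (n = 3). Pmaip1 lies at 19.0 to 33.0 CPM in F4/80hi and 161 to 255 CPM in F4/80low MAMs, while Bax overlaps between the subsets.

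*Mcl1* measured 626, 510.4 and 579 CPM in F4/80hi MAMs and 1125, 1009 and 1338 CPM in F4/80low MAMs. The subsets did not overlap, and *Mcl1* fell by 1.02 on the log2 scale in F4/80hi cells (SE 0.13, 95% interval -1.32 to -0.72, edgeR adjusted p = 0.000383). *Bcl2* was low in both, at 26.7, 25.8 and 25.0 CPM in F4/80hi and 39.7, 41.3 and 38.1 CPM in F4/80low MAMs, a fall by 0.62 (SE 0.08, adjusted p = 0.000392). *Bcl2l1* went the other way, with 126, 155 and 135 CPM in F4/80hi and 67.0, 75.1 and 101 CPM in F4/80low MAMs. It rose by 0.78 (SE 0.16, 95% interval 0.42 to 1.13, edgeR adjusted p = 0.00387), and again the subsets did not overlap.

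The Bcl2a1 copies were abundant in MAMs but did not move alike. *Bcl2a1d* measured 42.0, 44.9 and 35.0 CPM in F4/80hi and 158, 125 and 139 CPM in F4/80low MAMs, and fell by 1.79 (SE 0.13, 95% interval -2.08 to -1.51, edgeR adjusted p = 1.66e-05). *Bcl2a1b* measured 186, 159.7 and 158 CPM in F4/80hi and 228, 180.4 and 199 CPM in F4/80low MAMs, where the subsets overlapped. Its difference of -0.27 (SE 0.11, 95% interval -0.53 to -0.01, edgeR adjusted p = 0.0778) just passed, was lost by limma-voom (adjusted p = 0.123) and was lost in 4 of the 6 fits that leave out 1 library. *Bcl2a1a* measured 34.9, 32.2 and 26.0 CPM in F4/80hi and 69.6, 61.1 and 59.5 CPM in F4/80low MAMs, a fall by 1.03 (SE 0.12, adjusted p = 0.000259). Of all Bcl2a1 counts, *Bcl2a1b* took 67.5% to 72.2% in F4/80hi and 49.2% to 50.1% in F4/80low MAMs. The sequences printed above show how few bases tell the copies apart, and the sum of the copies, which does not depend on the split, fell by 0.76 (edgeR adjusted p = 0.000758), from 367 to 456 CPM in F4/80low to 219 to 263 CPM in F4/80hi MAMs.

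The effectors differed little. *Bak1* measured 191, 192 and 178 CPM in F4/80hi and 275, 264 and 262 CPM in F4/80low MAMs, without overlap, and fell by 0.51 (SE 0.08, edgeR adjusted p = 0.000882). *Bax* measured 95.4, 110.4 and 84.0 CPM in F4/80hi and 100.3, 95.8 and 109 CPM in F4/80low MAMs. The subsets overlapped, and its difference was -0.07 (95% interval -0.33 to 0.18).

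*Pmaip1* had the widest difference of the 10 members between the MAM subsets. It measured 33.0, 19.0 and 19.6 CPM in F4/80hi and 255, 161 and 192 CPM in F4/80low MAMs, an 8.52-fold higher level in the latter and a log2 difference of -3.09 (SE 0.25, 95% interval -3.67 to -2.51, edgeR adjusted p = 3.90e-05). *Bcl2l11* measured 39.1, 33.7 and 41.2 CPM in F4/80hi and 63.8, 56.7 and 65.0 CPM in F4/80low MAMs, a fall by 0.70 (SE 0.10, adjusted p = 0.000783). *Bid* measured 30.1, 34.7 and 32.3 CPM in F4/80hi and 28.0, 29.7 and 29.1 CPM in F4/80low MAMs. Its libraries did not overlap, but the difference of 0.16 (95% interval -0.04 to 0.36, edgeR adjusted p = 0.16) was not called. The 3 BH3-only genes thus had 1 wide difference, 1 moderate one and 1 that did not pass.

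Per kilobase, the order of the members in MAMs began with *Bcl2a1b* and *Mcl1*. In F4/80hi MAMs *Bcl2a1b* measured 203 ± 18.6 CPM per kb and *Mcl1* 164 ± 16.7, without overlap, followed by *Bax* at 99.0 ± 13.6 and *Bak1* at 78.3 ± 3.20. In F4/80low MAMs *Mcl1* came first at 332 ± 47.8 and *Bcl2a1b* next at 245 ± 29.1, again without overlap. *Bcl2* was last in both subsets, at 3.56 ± 0.116 CPM per kb in F4/80hi and 5.48 ± 0.221 in F4/80low MAMs. The 2 tables come from different library kits and were scaled separately, so no level was tested across them. The ratio of *Bcl2* to *Bcl2l11* was 0.475, 0.533 and 0.422 in F4/80hi and 0.433, 0.507 and 0.407 in F4/80low MAMs, which overlapped. *Mcl1* to *Bcl2l11* was 20.3 to 23.2 in F4/80hi and 25.5 to 29.7 in F4/80low MAMs, and *Bcl2* to *Bcl2l1* was 0.0751 to 0.095 and 0.17 to 0.267.

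The wider apoptosis lists held calls in both directions, with a median log2 difference of -0.23 for further BCL2 family genes, 0 for the mitochondrial machinery, -0.82 for inhibitors of apoptosis, -0.26 for the death receptor branch and -0.28 for regulators, beside 0.01 for all genes. Of 12 further BCL2 family genes in the table, 4 rose and 6 fell in F4/80hi MAMs. Among the falls, *Bmf*, a BH3-only gene, averaged 13.7 ± 4.40 CPM in F4/80hi and 35.9 ± 1.55 in F4/80low MAMs (log2 difference -1.39, SE 0.21, edgeR adjusted p = 0.000916), and *Bcl2l14* averaged 0.398 ± 0.245 and 9.35 ± 4.59 CPM (log2 difference -4.58, SE 0.52, adjusted p = 0.000205). *Bik*, also BH3-only, rose but stayed at 0.856 to 1.06 CPM. Of the 13 genes of the mitochondrial machinery 1 rose and 5 fell, among them the caspase gene *Casp6* (log2 difference -1.15, SE 0.09), the apoptosome scaffold *Apaf1* (-0.73, SE 0.09) and *Diablo* (-0.51, SE 0.08), with adjusted p from 2.99e-05 to 0.00131.

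Of the 7 inhibitors of apoptosis 1 rose and 5 fell. *Birc5*, which encodes survivin and is known to mark dividing cells, rose by 1.44 (SE 0.15, edgeR adjusted p = 0.000149), from 24.1 ± 2.85 to 65.6 ± 12.7 CPM. *Birc3* (log2 difference -1.06, SE 0.11), *Naip5* (-0.93, SE 0.09) and *Naip2* (-0.82, SE 0.09) fell. The 8 genes of the death receptor branch had 2 that rose and 4 that fell, with *Fas* (-1.12, SE 0.15), *Tradd* (-0.54, SE 0.12), *Cflar* (-0.40, SE 0.09) and *Casp8* (-0.33, SE 0.08) among the falls. Of the 11 regulators 2 rose and 6 fell, with *Stat5a* (-1.36, SE 0.13), *Foxo1* (-1.06, SE 0.11), *Nfkb1* (-0.95, SE 0.11) and *Rela* (-0.43, SE 0.07) at adjusted p from 8.03e-05 to 0.00198. In all, 36 of the 51 tested genes of the 5 lists were called, beside the 54.9% of all genes given above.

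Other transcripts moved with the MAM subsets. The 5 dendritic cell markers, all detected in both subsets, summed to 8.04 to 10.4 CPM in F4/80hi and 229 to 344 CPM in F4/80low MAMs. The 5 classical monocyte markers, all detected, summed to 560 to 704 and 2080 to 2240 CPM, and the 8 macrophage markers to 24300 to 34100 and 11100 to 14600 CPM. The 8 stress genes of tissue dissociation summed to 3790 to 5530 CPM in F4/80hi and 7460 to 9320 CPM in F4/80low MAMs. The 7 NK and ILC1 markers in the table, all detected in both subsets, summed to 1.84 to 4.28 CPM in F4/80hi and 17.3 to 35.9 CPM in F4/80low MAMs. Of the 6 neutrophil markers, 4 were detected in F4/80hi and 6 in F4/80low MAMs, with sums of 73.9 to 104 and 96.3 to 181 CPM, and 5 were called lower in F4/80hi MAMs. Of the 5 tumor epithelium markers, 2 (*Epcam* and *Cdh1*) were in the table, at 8.3 to 11.8 and 197 to 281 CPM summed. Their part in the differences of the BCL2 family genes was not tested.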

How the data were processed

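Lymphocyte libraries were made from total RNA (a stranded SMARTer kit for very low input) and MAM libraries from poly(A) RNA. The authors trimmed reads with Trim Galore, quantified transcripts with Salmon and summed them per gene. The submitters' processing notes name Salmon 1.5.0 and 1.10.0. The deposited values are estimated counts, as whole numbers and not normalized. For the lymphocytes the study's methods name GRCm39, a GENCODE annotation and tximport. The annotation of the MAM table is not given in the sources used here.

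Gene IDs were matched to symbols for 53700 of 54309 and 13726 of 13759 genes. Counts were filtered (filterByExpr), TMM-scaled and fitted with edgeR 4.0.16 (glmQLFit, glmQLFTest) in R 4.3.3, in 1 fit of the 12 lymphocyte libraries and 1 of the 6 MAM libraries. Log2 CPM used a prior count of 2. Genes were called at a Benjamini-Hochberg adjusted p under 0.1 over all genes tested, the threshold of the study. SEs were derived from the log2 difference and its F value and are approximate. DESeq2 1.42.0, limma 3.58.1 (voom with quality weights), other size factors, no filter, the 2 groups compared alone, summed Bcl2a1 copies, a replicate block, removal of mitochondrial and ribosomal genes, and leaving out each library were the alternatives. The fit was tested on simulated data. Precision is limited by 3 libraries per group, and intervals and limits at 0 counts cover the spread between libraries and counting error respectively. Libraries of a group differed beyond sampling noise, so none was counted as a duplicate.

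All 10 members are named in every comparison. From each wider list, up to 4 called genes with the lowest adjusted p are named, and for each member called among the lymphocytes the 3 genes of most like pattern with a mean of at least 5 CPM. A gene that this rule picks is not reported here. The members, lists and rules were chosen with earlier results of these data known. Sequences and positions are from GRCm39 with GENCODE vM39 annotation. Protein sequences were not used here.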

Additional observations from a re-analysis of the deposited data

Results flagged for a closer look

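*Foxo3*, a regulator named from the wider lists, had a difference between CD49a+ and CD49a- cells that was not the same in the LM and the MFL pair of groups. The CD49a+ cells were NK cells in LM and ILC1 in MFL, so site and cell type cannot be told apart here. Its interaction, CD49a+ LM minus CD49a- LM NK cells compared with MFL ILC1 minus MFL NK cells, was -1.71 on the log2 scale (SE 0.40, edgeR adjusted p = 0.0626). Mean levels were 144 CPM in CD49a+ LM and 196 CPM in CD49a- LM NK cells, against 385 CPM in MFL ILC1 and 161 CPM in MFL NK cells. The call was lost in 6 of the 12 fits that leave out 1 library (MFL NK replicate 1 or 3, MFL ILC1 replicate 2 or 3, or CD49a+ LM NK replicate 1 or 2), while the value ran from -2.08 to -1.54. Of the 10 BCL2 family genes, 0 had a called interaction.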

How the results depend on the processing

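Of the 458 recomputed lymphocyte differences of the 10 members under other settings, 430 kept their direction and side of the threshold, 16 were newly called and 12 changed sign, all 12 among differences that were not called. Of 720 with 1 library left out, 676 were unchanged in this sense, 9 were newly called, 7 lost the call and 28 changed sign. In the MAMs, 57 of 58 and 55 of 60 were unchanged, and every exception was *Bcl2a1b* or *Bax*.

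The number of members called for CD49a- LM against MFL NK cells was 0, but 1 by DESeq2, 1 by limma-voom and 2 without the filter, and 0 to 3 with 1 library left out. For MFL ILC1 against MFL NK cells it was 0, but 2 by DESeq2, 4 by limma-voom, 1 without the filter and 3 with the 2 groups alone, and 0 to 2 with 1 library left out. CD49a+ LM against MFL NK cells gave 1 by limma-voom, the interaction 1 without the filter and 0 to 3 with 1 library left out, and CD49a+ LM NK cells against MFL ILC1 0 to 1. Over all genes the calls for MFL ILC1 against MFL NK cells numbered 416, but 667 by DESeq2, 2645 by limma-voom, 599 without the filter and 1228 with the 2 groups alone. For CD49a- LM against MFL NK cells they numbered 10, but 161, 104 and 158 by DESeq2, limma-voom and without the filter, and for CD49a+ LM NK cells against MFL ILC1 486, but 1010, 935 and 774. Between the LM groups they numbered 19, but 543, 0 and 200 under these settings and 3 with the 2 groups alone. For CD49a+ LM against MFL NK cells they numbered 88, but 365, 307 and 371, and 94 with the 2 groups alone. The cause was not tested.

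None of the differences that changed sign was called. For CD49a+ LM against MFL NK cells *Bid* became 0.03 with other size factors, 0.03 by DESeq2 and 0.29 by limma-voom. By limma-voom, *Bcl2a1d* became 0.50 and *Pmaip1* 1.02 between the LM groups, *Bax* -0.08 and *Pmaip1* -0.70 for CD49a- LM against MFL NK cells, and *Bid* 0.02 for MFL ILC1 against MFL NK cells. With the 2 groups alone, *Pmaip1* became 0.02 between the LM groups. With 1 library left out, ranges that crossed 0 were, between the LM groups, -1.46 to 0.89 (*Bcl2a1b*), -1.10 to 1.95 (*Bcl2a1d*), -0.12 to 0.80 (*Bak1*) and -0.59 to 1.60 (*Pmaip1*). For CD49a+ LM against MFL NK cells they were -0.12 to 0.20 (*Bak1*) and -0.32 to 0.59 (*Bid*). For CD49a- LM against MFL NK cells they were -0.08 to 0.19 (*Mcl1*), -1.13 to 3.01 (*Bcl2a1d*), -0.59 to 0.42 (*Bax*), -0.74 to 0.18 (*Bak1*) and -1.33 to 0.87 (*Pmaip1*). For MFL ILC1 against MFL NK cells they were -0.01 to 0.15 (*Mcl1*), -0.74 to 0.15 (*Bax*), -0.20 to 0.06 (*Bak1*) and -0.20 to 0.10 (*Bcl2l11*). For CD49a+ LM NK cells against MFL ILC1 they were -0.25 to 0.02 (*Bcl2*), -0.87 to 0.03 (*Bcl2a1b*) and -0.05 to 0.26 (*Bak1*), for the interaction -3.44 to 0.70 (*Bcl2a1d*), -0.05 to 0.87 (*Bak1*) and -0.63 to 0.06 (*Bcl2l11*), and in the MAMs -0.18 to 0.01 (*Bax*).

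Replicate numbers recur in all groups. The study describes 3 separate sorts of the lymphocyte pools, but no source used here ties a replicate number to a sort. Deviations of same-numbered libraries correlated at -0.045 to 0.098 over 18 lymphocyte pairs and -0.015 to 0.172 over 3 MAM pairs. Of 12 lymphocyte libraries 9, and of 6 MAM libraries 2, correlated best with their own number, a hint from the data. A replicate block left the members called at 0, 0, 0, 0, 1 and 0 in the lymphocytes and 8 in the MAMs, with 24, 101, 15, 445, 484, 127 and 7512 of all genes called. Under the replicate block *Bcl2a1d* became 0.34 and *Pmaip1* 0.39 between the LM groups, and *Pmaip1* -0.08 for CD49a- LM against MFL NK cells.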
